A study of Mus musculus with 9 samples.

Results

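The nuclear-encoded subunits of the respiratory chain and of ATP synthase were followed in MyC-CaP cells over 24 hours with recombinant asporin (ASPN). They were the 85 of the 15384 genes in the count table whose symbols fit the naming of structural subunits, namely Nduf genes of the a, b, c, s and v series, Sdha to Sdhd, Uqcr genes, Cyc1, Cycs, Cox4 to Cox8 genes and Atp5 genes. By name, 36 belonged to complex I, 4 to complex II, 9 to complex III, 1 was cytochrome c, 18 belonged to complex IV and 17 to complex V. Ndufa4 and Ndufa4l2 were placed in complex IV, where their proteins are found, whereas Ndufab1, the assembly factors and the ATP synthase inhibitor Atpif1 lay outside the naming rule.

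Complexes I and II pass electrons from NADH and from succinate to ubiquinone, complex III hands them on through cytochrome c, and complex IV reduces oxygen. Complexes I, III and IV pump protons, and complex V, the ATP synthase, uses the returning protons to make ATP. Most subunits are encoded in the nucleus and imported, while the mitochondrial genome encodes a core set of complexes I, III, IV and V and none of complex II, so that assembly needs products of both genomes.

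The MyC-CaP line comes from a mouse prostate cancer driven by MYC and is labelled epithelial-like, and ASPN is a protein secreted by stromal fibroblasts. Cells in wells were deprived of serum and calcium for 6 to 12 hours and then given 100 ng/mL recombinant ASPN. RNA was taken before (time 0), at 12 hours and at 24 hours of treatment, with 3 libraries each. Although the treatment field of the time 0 libraries also reads ASPN, they served here as the starting point. With no untreated cells at 12 or 24 hours among the 9 libraries, ASPN and time in culture cannot be told apart in any comparison.

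The libraries held 41881191 to 52993821 counts (median 44779129), and the 85 genes took 1.09 to 1.12% of them before treatment, 1.07 to 1.09% after 12 hours and 1.25 to 1.27% after 24 hours. The mitochondrially encoded mRNAs took 2.6 to 2.71% before treatment, 2.63 to 2.85% after 12 hours and 0.113 to 0.203% after 24 hours. The prostate markers Foxa1 (mean of 233 CPM at time 0) and Hoxb13 (71.9 CPM) were present. Of the epithelial markers, Krt8 and Krt19 were present, whereas Epcam, Cdh1 and Krt18 had means of at most 0.413 CPM at every time. The listed fibroblast genes summed to 9.09 to 14.1 CPM per library, nearly all of it Pdgfra, and the leukocyte and endothelial lists each stayed below 1 CPM. CPM values are counts divided by library size, with TMM factors over the 9 libraries, and in bulk RNA fewer cells with a transcript and less transcript per cell cannot be told apart.

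The subunit mRNAs differed widely in level at time 0. Levels of different genes were set side by side as TPM, which also divides by exonic length, and between times TPM was used only for the shares of the genes for subunit c within each library. The median over the 80 genes with enough counts for a test was 185 TPM, and by complex the medians were 130 TPM for complex I, 158 TPM for complex II, 235 TPM for complex III, 345 TPM for complex IV and 210 TPM for complex V. Cox6a1, a small membrane subunit of complex IV, had the highest level with 1380 ± 19 TPM (SD, n = 3), followed by Cox6b1 with 1050 ± 22 TPM. Atp5b, the catalytic beta subunit of ATP synthase, and Cox4i1, the nuclear-encoded subunit that joins complex IV early in assembly, had 987 ± 22 and 982 ± 7.9 TPM, a gap smaller than the spread between replicates. Atp5a1, the alpha subunit that alternates with beta in the head of the enzyme, had 876 ± 16 TPM.

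At the other end, Ndufb2, an accessory subunit of complex I, had 6.36 ± 0.85 TPM, Cox7a1, the heart and muscle form of its subunit, 23.5 ± 2.1 TPM, and Atp5l 25.6 ± 1.1 TPM. Exonic length here is the union of all annotated exons, which is 5628 bases for Ndufb2 and 6443 bases for Atp5l, and isoform use was not measured. Complex II levels ran from 311 ± 3.0 TPM for the membrane anchor Sdhd to 90.1 ± 3.3 TPM for the other anchor, Sdhc.

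**Figure D1:**
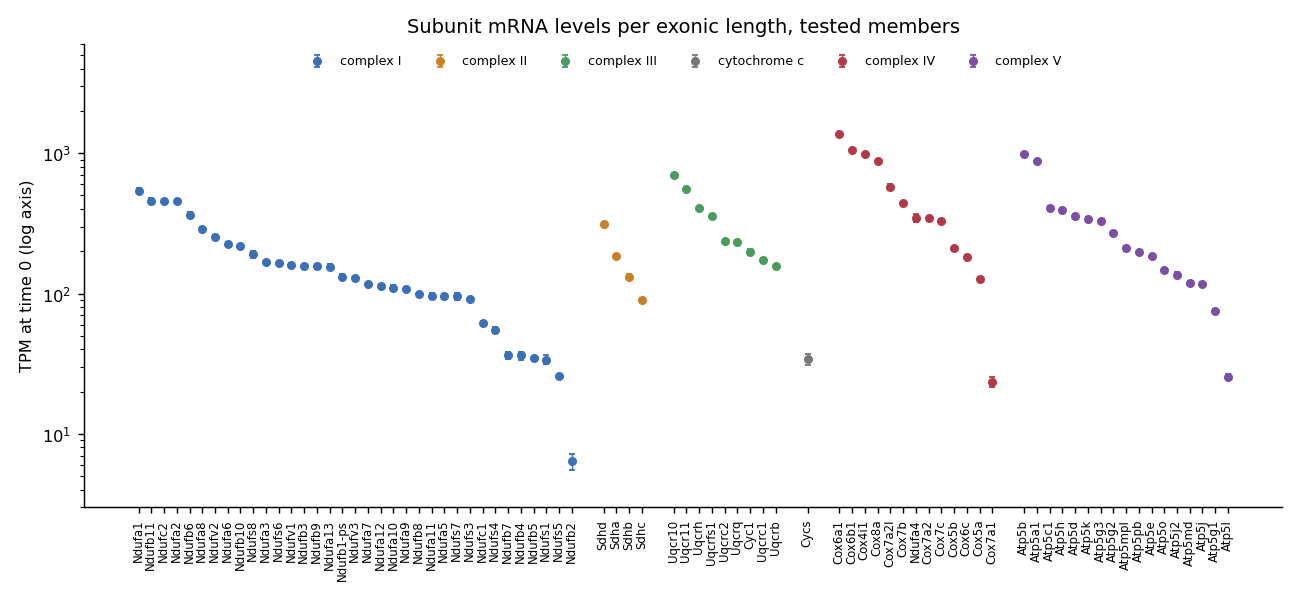
Mean level at time 0 in TPM (log axis) of the tested genes, 1 of them left out, ordered within each complex, with bars for the SD over 3 libraries. Complex IV holds the highest value (Cox6a1, 1380 TPM) and complex I the lowest (Ndufb2, 6.36 TPM).

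The 5 genes with too few counts for a test were all tissue-restricted or inducible forms of complex IV subunits. Cox4i2, the lung and low-oxygen form of Cox4, had 0 to 7 counts per library, and Cox6a2, a heart and muscle form, had 0 to 13. Cox6b2, a testis form, had 0 to 3 counts, Cox8b 0 or 1, and Ndufa4l2, a low-oxygen gene, 0 to 2. Each sat beside a general form with far higher counts: Cox4i1 had 458, 434 and 443 CPM at time 0, Cox6a1 291, 279 and 277, Cox6b1 220, 210 and 222, Cox8a 164, 155 and 159, and Ndufa4 134, 134 and 149. A library with 3 counts of a gene stands at 0.0566 to 0.0716 CPM, so these forms lay near or below that level, the highest value being 0.27 CPM of Cox6a2 in 1 library, and changes in them were not detectable at this depth. Among the tissue forms only Cox7a1 could be tested, with 4.05, 3.26 and 3.73 CPM at time 0 beside 96.3, 91.4 and 96.1 CPM of Cox7a2.

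After 12 hours, the subunit mRNAs stood where they had been at time 0. The 80 log2 fold changes had a median of -0.01 and ran from -0.15 (Ndufb2) to 0.22 (Ndufs5), and 75 of them lay within 0.1 of zero. With edgeR's quasi-likelihood test, 0 of 80 were called at a Benjamini-Hochberg adjusted p of 0.05 and 1.5-fold, against 1.5% of the 11410 tested genes called higher and 0.0964% called lower. By the adjusted p alone, 0 of 80 passed as well, against 6.85% of all tested genes higher and 3.47% lower, and 7 of 80 had an unadjusted p under 0.05, against 2437 of the 11410 tested genes. DESeq2 and limma-voom also passed 0. The lowest adjusted p was 0.055, for Ndufs7, an iron-sulfur subunit of complex I (46.4, 49.4 and 47.8 CPM at time 0, and 42.5, 44.4 and 44.0 CPM at 12 hours, a log2 fold change of -0.13). The 3 libraries of one time lay wholly above or below the 3 of the other in 15 of 80 genes, against 27% of all tested genes.

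After 24 hours, most subunit mRNAs were higher than at time 0, by modest amounts and unevenly. The median log2 fold change was 0.37, or 1.29-fold, against -0.02 over the 11444 tested genes, and 64 of 80 values were above zero. By adjusted p alone (edgeR), 60 of 80 rose and 5 fell, where 34.4% of all tested genes were higher and 36.5% lower. At 1.5-fold, 9 of 80 were called higher and 0 lower, against 12% and 16.8% of all tested genes. The share called at 1.5-fold (9 of 80) was therefore near that of all genes, and the excess over the background was in the number of small rises. The libraries of the 2 times did not overlap in 66 of 80 genes (61 higher, 5 lower), where 73.9% of all tested genes did not overlap.

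Among the 9 genes called higher were Atp5g2 and Atp5e of ATP synthase, Cox7a2l, Cox4i1, Cox8a and Cox6b1 of complex IV, Uqcrh of complex III and Sdhd of complex II. Just under the threshold of 1.5-fold were Atp5c1 with a log2 fold change of 0.58 and Cycs and Cox7a2 with 0.57 each. The 5 that fell by adjusted p alone were Ndufb2, Ndufs3, Sdhb, Ndufa4 and Atp5j, with log2 fold changes of -0.35 to -0.10. By complex, the median log2 fold change was 0.30 for complex I (36 genes), 0.07 for complex II (4 genes), 0.30 for complex III (9 genes), 0.55 for the 13 tested genes of complex IV and 0.40 for complex V (17 genes). Whether the complexes differed from each other was not tested.

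**Figure D2:**
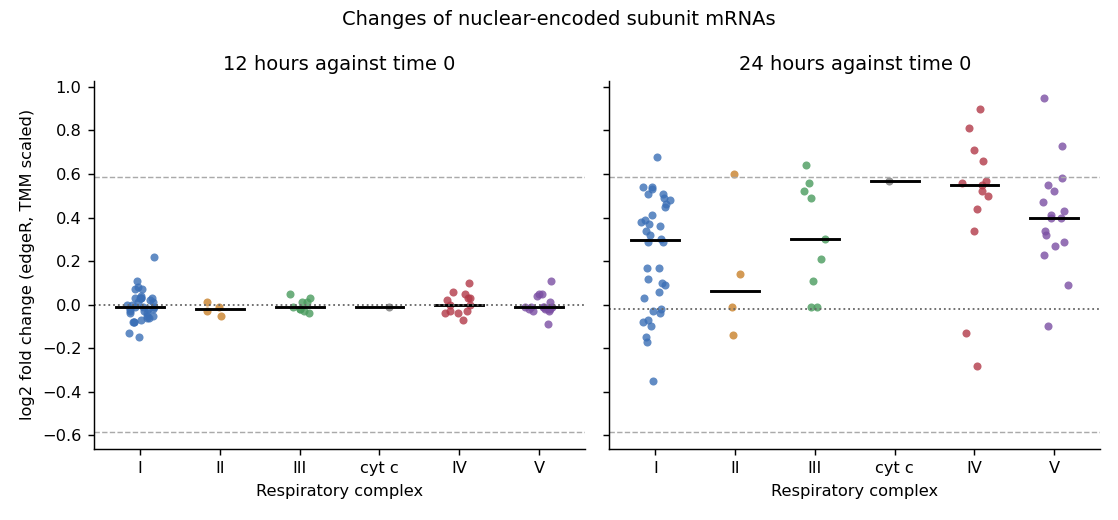
Log2 fold change of each of the 80 tested genes by complex at 12 hours (left) and 24 hours (right) against time 0, with a short bar at each complex's median, a dotted line at the median of all tested genes and dashed lines at 1.5-fold. At 12 hours the points lie between -0.15 and 0.22, and at 24 hours between -0.35 and 0.95 with most above zero.

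These values rest on how the libraries were scaled. TMM factors were 1.04 to 1.07 at time 0 and 0.899 to 0.914 at 24 hours, and scaling by total counts moved the median of all tested genes at 24 hours to -0.24. Under total counts, 45 subunit genes were higher and 22 lower by adjusted p, the median log2 fold change was 0.14, and 2 genes, Atp5g2 (0.73) and Cox7a2l (0.68), were called at 1.5-fold. Relative to all genes, the subunit median stood 0.38 higher under total counts and 0.39 higher under TMM. Scaling without the mitochondrially encoded genes also gave 60 higher and 5 lower.

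Complex I, the NADH dehydrogenase, had 23 genes higher, 2 lower and 11 in neither direction by adjusted p at 24 hours (median log2 fold change 0.30). With offsets for exonic length and GC content in the same edgeR test, 19 complex I genes were higher and 9 lower, with a median of 0.12. In that fit 4091 of all 11444 tested genes were higher (35.7%) and 3928 lower. Ndufv1, the subunit that binds NADH, went from 126, 118 and 127 CPM to 172, 178 and 176 CPM, a log2 fold change of 0.51 ± 0.043 (SE, edgeR adjusted p = 1.8e-07). The 12 hour libraries, with 119, 122 and 124 CPM, lay among those of time 0, and the 24 hour libraries lay above all others.

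Core subunits of the same complex did not all follow. Ndufv2 (log2 fold change 0.30 ± 0.041, edgeR adjusted p = 1.6e-05) and Ndufs8 (0.29 ± 0.053, edgeR adjusted p = 0.00026), named after their values were seen, also rose. Ndufs7 did not pass (-0.08 ± 0.053, edgeR adjusted p = 0.18). Ndufs1, the large iron-sulfur subunit next to Ndufv1, had 74.4, 82.4 and 81.5 CPM at time 0 and 74.6, 75.7 and 71.5 CPM at 24 hours, groups that overlapped narrowly (log2 fold change -0.10 ± 0.050, edgeR adjusted p = 0.090). It was lower past the threshold with the offsets (-0.15, edgeR adjusted p = 0.0094) and under total-count scaling (-0.32, edgeR adjusted p = 0.00017). Ndufs3, another core subunit, fell from 59.0, 57.2 and 59.3 CPM to 51.7, 51.2 and 52.8 CPM, with no overlap (log2 fold change -0.17 ± 0.044, edgeR adjusted p = 0.0040). Its mRNA shares 28.2% of its 75-base stretches with other annotated genes, so part of its reads could be split among copies. The accessory subunit Ndufb2 had the lowest value of the 80 (9.03, 11.0 and 11.3 CPM at time 0, 10.4, 7.25 and 6.98 CPM at 24 hours), its groups overlapped, and the log2 fold change of -0.35 ± 0.143 passed narrowly (edgeR adjusted p = 0.041). Leaving out single libraries took the adjusted p of Ndufb2 as high as 0.18.

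Complex II, succinate dehydrogenase, is the only respiratory complex without a mitochondrially encoded subunit, and its 4 mRNAs went separate ways. Sdhd, a membrane anchor, had 115, 109 and 111 CPM at time 0, 114, 114 and 110 at 12 hours and 169, 165 and 172 at 24 hours, a clear separation (log2 fold change 0.60 ± 0.041, edgeR adjusted p = 2.4e-08). Sdhc, the other anchor, rose less, from 84.7, 87.5 and 84.4 CPM to 91.5, 95.1 and 94.8 CPM (0.14 ± 0.041, edgeR adjusted p = 0.0083), and is named after its values were seen. Sdha, the flavoprotein that oxidizes succinate, had 221, 217 and 227 CPM at time 0 and 221, 218 and 220 CPM at 24 hours, a log2 fold change of -0.01 ± 0.038 (edgeR adjusted p = 0.89), which was -0.23 under total-count scaling (edgeR adjusted p = 0.00012).

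Sdhb, the iron-sulfur subunit that links Sdha to the anchors, had 84.5, 87.0 and 88.1 CPM at time 0 and 74.1, 79.0 and 81.5 CPM at 24 hours. It fell by 0.14 on the log2 scale with an SE of 0.046 (edgeR adjusted p = 0.015), and without replicate 3 of time 0 the adjusted p was 0.089. The mean log2 ratio of Sdhd to Sdhb went from 0.37 ± 0.067 to 1.11 ± 0.071 (SD, n = 3), and that of Sdhd to Sdha from -0.99 ± 0.045 to -0.38 ± 0.025, with no overlap in either. These are 2 of 8 ratios within complexes that were compared after the values were seen, and they do not depend on the scaling. In each of the 8, the 3 libraries of 24 hours lay on one side of the 3 of time 0, which gives an exact two-sided permutation p of 0.1, the smallest that 3 against 3 allows (adjusted over the 8, 0.1). Because the pairs were chosen with the changes of their genes known, this p does not test them.

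The promoters of the subunit that rose most in complex II and of the one that fell are shown for comparison, as the 250 bases before and 50 after the start site in RefSeq (GRCm38.p6), 5′ to 3′ on the gene's strand. Capitals mark a match to 1 of 4 short motifs that were searched on both strands: GCGCATGC, read by the factor NRF1, CCGGAAGT (ETS family, which includes GABPA), AAGATGGC (YY1) and CACGTG (E-box).
Sdhd (chr9:50603800-50604099, minus strand): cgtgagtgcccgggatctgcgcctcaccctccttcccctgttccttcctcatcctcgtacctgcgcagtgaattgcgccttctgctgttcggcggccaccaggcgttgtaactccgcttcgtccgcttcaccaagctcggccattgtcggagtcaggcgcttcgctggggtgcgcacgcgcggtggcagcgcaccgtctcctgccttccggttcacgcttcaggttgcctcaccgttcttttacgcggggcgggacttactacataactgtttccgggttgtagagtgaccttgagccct
Sdhb (chr4:140961021-140961320, plus strand): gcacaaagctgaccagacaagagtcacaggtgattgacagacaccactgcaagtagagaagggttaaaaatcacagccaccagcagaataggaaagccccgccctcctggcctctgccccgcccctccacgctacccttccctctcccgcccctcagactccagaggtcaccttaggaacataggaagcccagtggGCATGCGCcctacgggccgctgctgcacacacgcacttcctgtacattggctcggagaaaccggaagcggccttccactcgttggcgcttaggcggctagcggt
The Sdhb window holds 1 NRF1 match, which reads GCATGCGC on the gene's strand, and the Sdhd window holds none of the 4 strings.

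Complex III, which oxidizes ubiquinol, had 7 of 9 genes higher and 0 lower by adjusted p (edgeR), against 34.4% and 36.5% of all tested genes. Uqcrh, the hinge subunit beside cytochrome c1, had 150, 146 and 143 CPM at time 0 and 232, 221 and 231 CPM at 24 hours, a log2 fold change of 0.64 ± 0.041 (edgeR adjusted p = 1.2e-08). Uqcrfs1, the Rieske iron-sulfur protein, went from 146, 135 and 144 CPM to 201, 200 and 208 CPM (0.52 ± 0.043). For both genes the 24 hour libraries lay above the time 0 libraries by far more than the replicates differed.

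Uqcrc1, a core subunit of complex III without a redox centre, had a log2 fold change of 0.11 ± 0.041 (206, 206 and 216 CPM against 217, 230 and 230 CPM). This value was -0.11 under total-count scaling (edgeR adjusted p = 0.029) and 0.25 with the offsets for length and GC content (edgeR adjusted p = 3.1e-05). Cyc1, the cytochrome c1 that passes electrons to cytochrome c, was at 120, 127 and 125 CPM at time 0 and 122, 122 and 124 CPM at 24 hours (-0.01 ± 0.040, edgeR adjusted p = 0.78), and its log2 fold change was -0.24 under total-count scaling (edgeR adjusted p = 0.00027). Cycs, cytochrome c itself, had 32.5, 31.7 and 37.1 CPM at time 0 and 47.0, 54.9 and 48.0 CPM at 24 hours, without overlap (0.57 ± 0.072, edgeR adjusted p = 9.4e-06). Of the Cycs mRNA, 26.1% of 75-base stretches also occur in other annotated genes.

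Complex IV, cytochrome c oxidase, had the highest median of the complexes, with 11 of its 13 tested genes higher by adjusted p, 1 lower and 4 called at 1.5-fold. Of all tested genes, 34.4% were higher and 36.5% lower by adjusted p, and 12% were called higher at 1.5-fold. Cox4i1 had 458, 434 and 443 CPM at time 0, 468, 460 and 448 at 12 hours and 781, 762 and 781 at 24 hours (log2 fold change 0.81 ± 0.040, edgeR adjusted p = 1.4e-09). Cox7a2l, a Cox7a relative known for joining complexes III and IV into supercomplexes, had 266, 232 and 249 CPM, then 252, 256 and 238, then 476, 442 and 470 (0.90 ± 0.052, edgeR adjusted p = 5e-09). In both genes the 12 hour libraries lay among those of time 0 or close above them, and the 24 hour libraries stood far apart.

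Cox8a, a small membrane subunit, went from 164, 155 and 159 CPM to 262, 256 and 259 CPM (0.71 ± 0.039), and Cox6b1, which faces the intermembrane space, from 220, 210 and 222 CPM to 340, 334 and 356 CPM (0.66 ± 0.042). With offsets for length and GC content both stayed under 1.5-fold, with 0.44 for Cox8a and 0.36 for Cox6b1. Cox6a1 (0.55 ± 0.040), Cox5a (0.44 ± 0.041), the zinc-binding subunit Cox5b (0.50 ± 0.041, named after its values were seen) and Cox7b (0.34 ± 0.040, and 0.11 with the offsets) also passed by adjusted p, each under 1.5-fold.

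Within the Cox7a set the forms moved apart. Cox7a2, the general form, had 96.3, 91.4 and 96.1 CPM at time 0 and 139, 140 and 141 CPM at 24 hours (0.57 ± 0.040), and the ratio of Cox7a2l to Cox7a2 rose further, from a mean log2 value of 1.39 ± 0.061 to 1.72 ± 0.060. Cox7a1 had 4.05, 3.26 and 3.73 CPM and then 3.15, 2.42 and 3.50 CPM, overlapping values with a log2 fold change of -0.28 ± 0.161 (edgeR adjusted p = 0.14). Ndufa4, first assigned to complex I and later to complex IV, had 134, 134 and 149 CPM at time 0 and 130, 125 and 125 CPM at 24 hours (-0.13 ± 0.048, edgeR adjusted p = 0.025), and without replicate 3 of time 0 its adjusted p was 0.27. The mean log2 ratio of Cox4i1 to Ndufa4 went from 1.68 ± 0.10 to 2.61 ± 0.027, the largest difference of the 8 ratios (0.94).

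**Figure D3:**
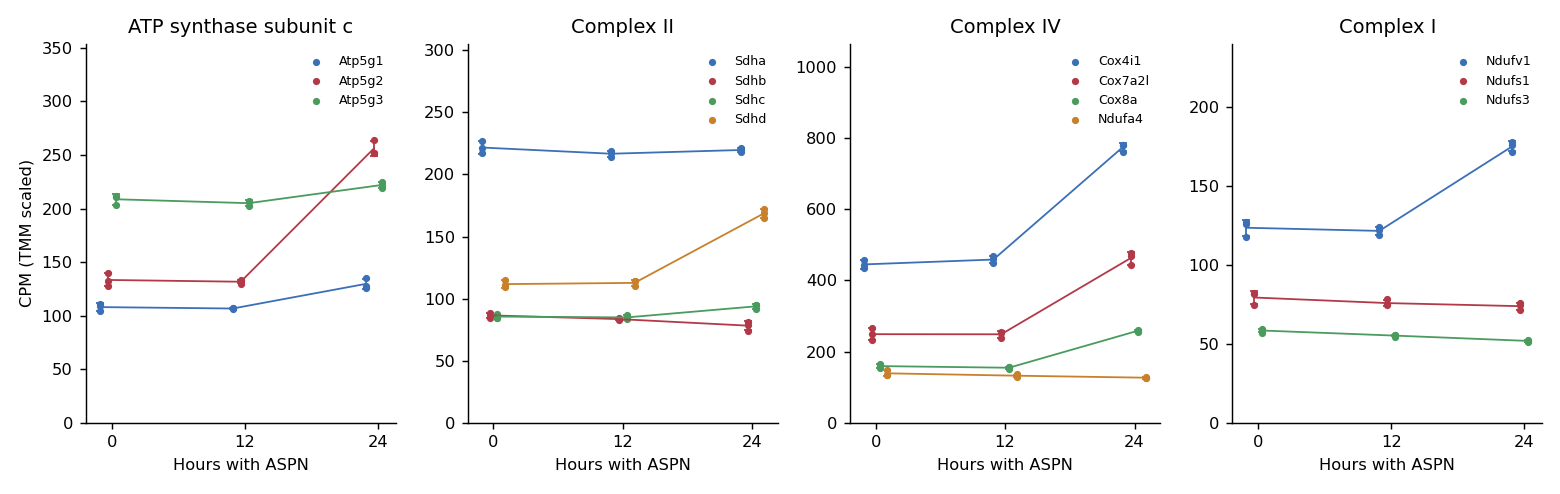
CPM (TMM scaled) in each of the 9 libraries at 0, 12 and 24 hours for selected subunits of ATP synthase, complex II, complex IV and complex I, with lines through the means and bars for the SD (n = 3). Atp5g2, Sdhd, Cox4i1, Cox7a2l, Cox8a and Ndufv1 step up between 12 and 24 hours, while Atp5g3, Sdha, Sdhb, Ndufa4, Ndufs1 and Ndufs3 have log2 fold changes between -0.17 and 0.09.

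Complex V, the ATP synthase, had 16 of 17 genes higher and 1 lower by adjusted p, against 34.4% and 36.5% of all tested genes. The libraries of time 0 and 24 hours did not overlap in any of the 17, where 73.9% of all tested genes did not overlap. In the catalytic head, Atp5b went from 1220, 1200 and 1250 CPM to 1770, 1740 and 1740 CPM (log2 fold change 0.52 ± 0.040, edgeR adjusted p = 6.7e-08). Its partner Atp5a1 rose less, from 809, 782 and 817 CPM to 924, 940 and 942 CPM (0.23 ± 0.039), and under total-count scaling its log2 fold change was 0.00. In the central stalk, Atp5e, the epsilon subunit, had 95.7, 95.7 and 95.0 CPM at time 0 and 157, 147 and 168 CPM at 24 hours (0.73 ± 0.049, edgeR adjusted p = 2.1e-08). The gamma subunit Atp5c1 (0.58 ± 0.041) and the delta subunit Atp5d (0.55 ± 0.041) lay close to 1.5-fold.

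Atp5j, the coupling factor that joins head and membrane part through the side stalk, was the only member of complex V to fall (107, 104 and 109 CPM against 97.7, 98.6 and 100.0 CPM). Its log2 fold change was -0.10 ± 0.041 (edgeR adjusted p = 0.035), and adjusted p ran up to 0.24 with single libraries left out. Atpif1, the inhibitor of ATP synthase and no member of the list, had means of 34.9 CPM at time 0 and 34.1 CPM at 24 hours (-0.03 ± 0.056, edgeR adjusted p = 0.68).

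Subunit c, which forms the rotating ring in the membrane, is made from Atp5g1, Atp5g2 and Atp5g3, which encode the same mature protein behind different import sequences. Atp5g2 had the largest rise of all 80 genes, from 140, 128 and 132 CPM at time 0 and 130, 133 and 132 CPM at 12 hours to 252, 252 and 264 CPM at 24 hours (0.95 ± 0.044, 1.93-fold, edgeR adjusted p = 9e-10). Atp5g1 went from 109, 104 and 111 CPM to 126, 128 and 135 CPM (0.27 ± 0.044, edgeR adjusted p = 0.00011), which was 0.04 under total-count scaling. Atp5g3 went from 212, 203 and 211 CPM to 222, 225 and 219 CPM (0.09 ± 0.039, edgeR adjusted p = 0.044), and its sign turned under total counts (-0.13) and under offsets for length and GC content (-0.06).

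Per exonic length, Atp5g3 was the most abundant of the genes for subunit c at time 0 and Atp5g2 at 24 hours. Of their summed TPM within a library, Atp5g2 made 40.3 ± 0.72% at time 0, 40.4 ± 0.13% at 12 hours and 54.4 ± 0.73% at 24 hours (SD, n = 3). Atp5g3 went from 48.5 ± 0.53% through 48.4 ± 0.23% to 36.2 ± 0.93%, and Atp5g1 from 11.2 ± 0.23% through 11.2 ± 0.12% to 9.41 ± 0.21%. The log2 ratio of Atp5g2 to Atp5g3 in CPM changed sign, from a mean of -0.65 ± 0.041 to 0.21 ± 0.057.

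The promoters of the genes for subunit c are shown because their mRNAs moved apart although the mature product is shared. Build, window and capitals are as for complex II.
Atp5g1 (chr11:96075582-96075881, minus strand): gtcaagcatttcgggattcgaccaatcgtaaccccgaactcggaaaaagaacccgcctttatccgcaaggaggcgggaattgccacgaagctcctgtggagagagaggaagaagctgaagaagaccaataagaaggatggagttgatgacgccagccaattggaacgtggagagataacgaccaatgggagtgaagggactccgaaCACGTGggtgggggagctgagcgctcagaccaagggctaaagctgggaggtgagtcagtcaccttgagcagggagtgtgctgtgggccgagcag
Atp5g2 (chr15:102670998-102671297, minus strand): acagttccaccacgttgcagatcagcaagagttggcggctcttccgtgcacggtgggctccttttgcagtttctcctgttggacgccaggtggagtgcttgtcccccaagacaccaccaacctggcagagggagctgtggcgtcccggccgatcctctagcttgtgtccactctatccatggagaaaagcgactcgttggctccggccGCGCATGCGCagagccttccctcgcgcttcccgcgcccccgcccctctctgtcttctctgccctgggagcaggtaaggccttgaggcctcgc
Atp5g3 (chr2:73911277-73911576, minus strand): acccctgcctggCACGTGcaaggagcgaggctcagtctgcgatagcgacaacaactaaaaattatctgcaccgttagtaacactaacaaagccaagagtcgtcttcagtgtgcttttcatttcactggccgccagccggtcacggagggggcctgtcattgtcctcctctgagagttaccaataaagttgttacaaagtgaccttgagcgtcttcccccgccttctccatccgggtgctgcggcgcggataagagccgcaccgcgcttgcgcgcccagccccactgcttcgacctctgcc
The Atp5g2 window holds 2 overlapping NRF1 matches on opposite strands, and the Atp5g1 and Atp5g3 windows hold 1 E-box each and no NRF1 match. In the annotation used for lengths, Atp5g2 spans chr15:102662864-102672352 and so begins upstream of the RefSeq start used for its window.

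Over the genes as a group, 69 of 85 matched a RefSeq promoter. The NRF1 string stood in 15.9% of these, in 5.8% of the 9235 promoters of all genes tested at 24 hours and in 2.8% of all 27025 promoters. The YY1 string stood in 13%, 5% and 2.87%, the ETS string in 7.25%, 9.04% and 3.99%, and the E-box in 8.7%, 10.5% and 7.24%. The YY1 matches were in complex I (7 genes) and complex V (2 genes). The median log2 fold change at 24 hours was 0.40 in the 11 tested genes with an NRF1 match and 0.34 in the 56 without one. A match is a description of these letters and was not tested as a binding site.

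Against the 12 hour libraries, most subunit mRNAs were again higher at 24 hours. The median log2 fold change of the 80 genes was 0.38, and 59 were higher and 2 lower by adjusted p (edgeR), against 35.7% and 35.6% of the 11394 tested genes. At 1.5-fold, 12 were called higher and 0 lower, against 10.4% and 15.3%. Cycs (0.60), Atp5c1 (0.63) and Atp5d (0.59) were called here beside the 9 genes called for 24 hours against time 0, and the lower genes were Atp5j and Cox7a1. All 3 comparisons share libraries in pairs, the 12 and 24 hour ones those of time 0, and are not independent of each other.

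Genes outside the list were set beside the subunits at 24 hours against time 0. The mitochondrially encoded mRNAs, the partners of the nuclear subunits in complexes I, III, IV and V, fell steeply: 12 of 13 were tested, all 12 were called lower, and the log2 fold changes ran from -6.45 to -2.54 with a median of -4.03. Of all tested genes, 16.8% were called lower. mt-Co1, the catalytic subunit of complex IV, had a mean of 9730 CPM at time 0, 10300 CPM at 12 hours and 932 CPM at 24 hours, and mt-Cytb of complex III had 5040, 5240 and 280 CPM. In the same libraries Cox4i1 and Uqcrfs1, which sit in the same complexes, were higher. Of the 12, mt-Co2, mt-Atp6, mt-Co3, mt-Atp8 and mt-Nd4l had means of at most 23.8 CPM at time 0, where the other 7 had at least 1110 CPM. The value of -6.45, for mt-Atp6, follows time 0 libraries of 188 to 3441 counts that differed widely among themselves, and the next lowest was -5.91 for mt-Nd2.

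Assembly factors help build the complexes but are not kept in them. Of 50 tested, 11 were higher and 15 lower by adjusted p, against 34.4% and 36.5% of all tested genes, with a median log2 fold change of 0.02. With the offsets for length and GC content, 4 were higher and 23 lower, with a median of -0.13, and 0 were called higher and 6 lower at 1.5-fold. In that fit 4091 of all 11444 tested genes were higher (35.7%) and 3928 lower, and 1365 and 1613 were called at 1.5-fold. At 1.5-fold without the offsets, Ndufaf2 (0.63) and the complex III factor Bcs1l (0.60) were higher, while Tmem186 (-1.46), the copper chaperone Cox17 (-2.04), Cox15 (-0.71), Coa7 (-0.78) and Sdhaf4 (-0.66) were lower. Of all tested genes, 12% were called higher and 16.8% lower. With the offsets Ndufaf2 (0.56) and Bcs1l (0.49) were under 1.5-fold. Of the complex IV factors, 5 were higher and 6 lower, where 11 of the 13 tested complex IV subunits were higher. The difference between the lists was not tested.

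The shares of all tested genes that were higher and lower, 34.4% and 36.5%, are the background of the following lists too. At 1.5-fold these shares were 12% and 16.8%. With the offsets, 4091 of 11444 tested genes were higher (35.7%) and 3928 lower, and 1365 and 1613 were called at 1.5-fold. Among the TCA cycle and pyruvate dehydrogenase genes, 12 of 17 were higher and 2 lower by adjusted p (median 0.24), and Cs, citrate synthase (0.83), and Suclg2 (0.67) passed 1.5-fold. In the list of import and outer membrane genes, which also held Hspd1 and Immt, 10 of 13 were higher and 0 lower (median 0.35). Vdac3 (0.69), Vdac2 (0.66) and Tomm22 (0.59) were past 1.5-fold. With the offsets 10 genes of this list were higher and 1 lower, and 1 was past 1.5-fold, while Vdac3 (0.53) and Tomm22 (0.40) were not. Of the regulators of respiratory genes, 3 of 11 were higher and 4 lower, shares near the background, and with the offsets for length and GC content 6 were higher and 4 lower. Tfb1m was called higher (0.82), and the coactivators Pprc1 (-1.55) and Ppargc1a (-0.72) were called lower.

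**Figure D4:**
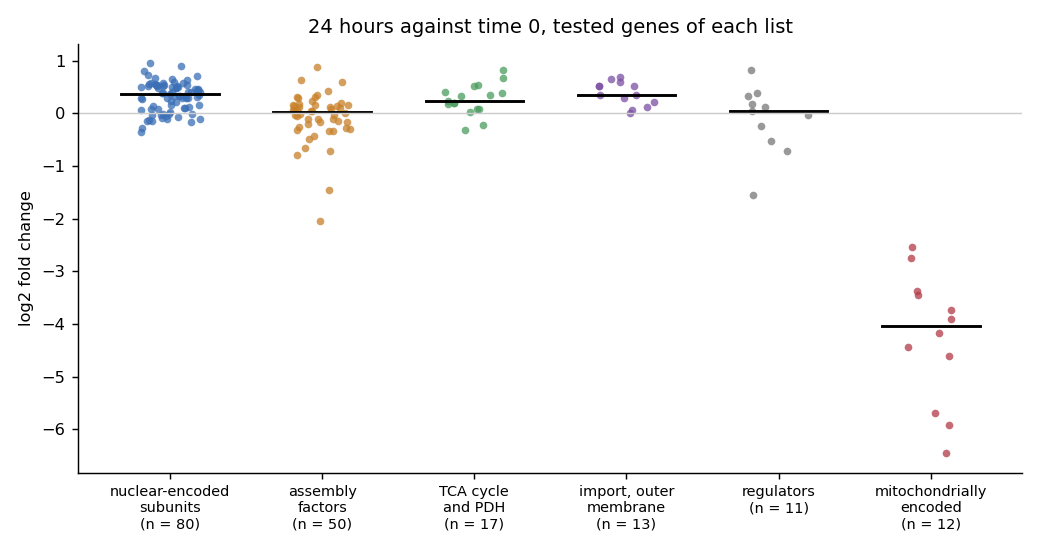
Log2 fold change at 24 hours against time 0 of the tested genes in each mitochondrial list, with a bar at the list median and the number of genes under each list. The nuclear-encoded subunits (median 0.37) and the genes of the import and outer membrane list (0.35) lie mostly above zero, the assembly factors (0.02) on both sides, and the mitochondrially encoded mRNAs between -6.45 and -2.54.

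The subunit mRNAs are short, and short genes as a class were higher at 24 hours. The median exonic length was 1696.5 bases for the 80 genes and 4477 bases over all tested genes, with a GC content of 50.9% and 50.4%. When all tested genes were ordered by length and cut into 5 groups of near-equal size, the shortest group (up to 2520 bases), which held 57 of the 80, had a median log2 fold change of 0.13 at 24 hours against time 0, and the longest group had -0.11. Within the shortest group the subunit genes had a median of 0.37, and in the next group, with 13 of them, 0.43 beside 0.04 for all genes. In the 3 longer groups, with 7, 2 and 1 of them, the subunit medians were 0.27, 0.02 and -0.10 beside -0.05, -0.10 and -0.11 for all genes.

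With offsets for length and GC content in the same edgeR test, the median of the 80 fell from 0.37 to 0.19, with 53 higher and 14 lower by adjusted p. In that fit 4091 of all 11444 tested genes were higher (35.7%) and 3928 lower. By complex, the median with the offsets was 0.12 for complex I, 0.05 for complex II, 0.25 for complex III, 0.34 for complex IV and 0.21 for complex V. Of the 60 genes that rose without the offsets 52 also rose with them, and the 5 that fell also fell with them. Ndufb6 changed from higher (0.10) to lower. With the offsets 5 genes were called higher at 1.5-fold, among them Atp5g2 (0.84), Cox7a2l (0.70), Cox4i1 (0.66) and Ndufb5 (0.60, named after its values were seen), and Cox7a1 was lower (-0.61). Of all 11444 tested genes 1365 were called higher and 1613 lower in that fit, a larger share in both directions. Atp5e (0.58), Uqcrh (0.42) and Sdhd (0.38), called without the offsets, were under 1.5-fold with them. The part of length in the rise of these genes was not tested beyond this.

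**Figure D5:**
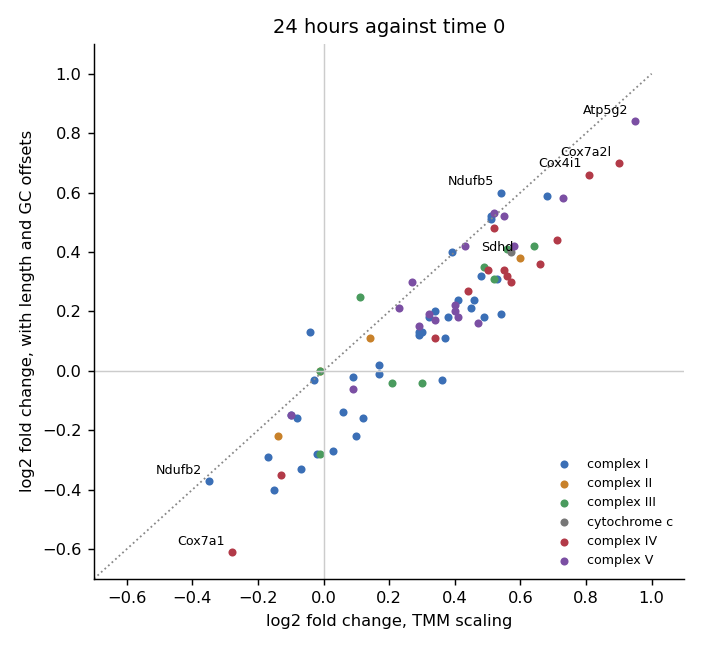
Log2 fold change at 24 hours against time 0 of each of the 80 genes without (horizontal) and with (vertical) offsets for exonic length and GC content, coloured by complex, with a dotted line where both are equal. Most points lie below the line, while Atp5g2, Cox7a2l and Cox4i1 lie furthest to the upper right.

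Many respiratory subunits have processed copies elsewhere in the genome, which could share their reads. Of the 85 genes, 48 shared no 75-base stretch of their longest transcript with any other annotated gene, and 16 shared over 20%. Atp5l shared 76.0%, Atp5o 39.1%, Atp5h 36.5% and Ndufb4 35.2%, and the values of these genes are uncertain to that extent. Among the genes called at 1.5-fold the share was lower, with 13.4% for Cox7a2l, 11.6% for Cox4i1 and 8.0% for Atp5g2. Exons of a gene on the opposite strand covered over 20% of Ndufb6, Atp5o and Ndufa13, and whether counting used the strand is not given in the sources used here.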

How the data were processed

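The authors prepared TruSeq mRNA libraries from total RNA, sequenced them as paired-end reads, trimmed them with cutadapt, used STAR for alignment to GRCm38 and featureCounts for gene counts. The deposited values are these raw counts of 15384 genes, without normalization, and the authors' handling of multi-mapped reads and strand is not given in the sources used here. The members, gene lists, ratios and motifs were chosen with earlier results of these data known.

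From the counts, each pair of times (3 libraries against 3) was filtered with filterByExpr, scaled with TMM and tested with edgeR 4.0.16 (quasi-likelihood, R 4.3.3) over all genes, with Benjamini-Hochberg adjustment over all genes tested. Genes were called at an adjusted p of 0.05 and 1.5-fold, or by the adjusted p alone, in which case they are said to rise or fall. Total counts per library (41881191 to 52993821) set the precision, with errors given as the SD of 3 libraries or the fitted SE. Lengths, GC content and positions come from GENCODE M21, in which 99.93% of genes were found by identifier. The 75-base stretches were compared among its transcripts. Named genes were those called at 1.5-fold, the highest and lowest of each complex at 24 hours, core subunits, paralog sets and Atpif1, and genes of other lists that were called. A few genes that fall under these rules are not reported here by name. Replicate counts varied beyond sampling noise (chi-square per degree of freedom of 3.41 to 17.5 in 9 pairs). The labels call the libraries biological replicates of cells plated in triplicate wells, so p-values may measure the spread between wells. Same-numbered libraries did not deviate together, so no block was used.

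Alternatives were DESeq2 1.42.0, limma-voom (limma 3.58.1), edgeR's glmTreat, RLE, upper-quartile and total-count scaling, TMM without mitochondrially encoded genes, other filters on low counts, all 9 libraries in one fit, a replicate block, loess offsets for length and GC content (span 0.3), these with the block, and leaving out each library in turn. The calculations were tested on simulated data.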

Additional observations from a re-analysis of the deposited data

How the results depend on the processing

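At 12 hours against time 0, the number of members past adjusted p, 0 of 80, was 1 with upper-quartile factors, 1 with total counts and 2 with no filter on low counts, and the median log2 fold change was -0.03 with total counts. At 24 hours against time 0, the number called at 1.5-fold (9) was 15 with upper-quartile factors and 2 with total counts, and the median (0.37) was 0.40, 0.14, 0.19 and 0.19 with upper-quartile factors, total counts, length and GC offsets, and these with the replicate block. At 24 against 12 hours, the number called (12) was 2 with total counts, 5 with the offsets, 5 with offsets and block and 7 with glmTreat, and the median (0.38) was 0.40 with upper-quartile factors, 0.16 with total counts, 0.18 with the offsets and 0.18 with offsets and block. Total counts moved the median of all genes to -0.24 and -0.22. With DESeq2, 0, 11 and 12 members were called.

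Same-numbered libraries showed no shared deviation (mean correlations of -0.02, -0.06 and 0.02, and 0.06 or less in every pair), and with the replicate block 0, 9 and 12 members were called, 0, 60 and 60 passed adjusted p and the medians were -0.01, 0.37 and 0.38. For single genes at 24 hours, the block raised the edgeR adjusted p of Atp5g3 (0.071), Ndufb2 (0.071) and Atp5j (0.053) above the threshold of 0.05.

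Leaving out single libraries gave medians of -0.03 to 0.01, 0.35 to 0.41 and 0.37 to 0.40 for 12 hours and 24 hours against time 0 and 24 against 12 hours, with 0, 9 to 13 and 11 to 15 members called and 0 to 2, 58 to 63 and 59 to 62 past adjusted p. The 2 at 12 hours came without replicate 1 of time 0. Values at zero changed sign: Sdha (-0.01) was 0.00 with DESeq2, 0.01 with RLE, 0.03 with upper-quartile factors, and 0.01 and 0.02 without replicates 1 and 3 of time 0, and Cyc1 (-0.01) was 0.02 with upper-quartile factors and 0.01 and 0.00 without replicates 2 and 3 of time 0. Atp5g3 (0.09) was -0.13 with total counts and -0.06 with the offsets, alone or with the block, and Uqcrc1 (0.11) was -0.11 with total counts. Of 516 values of single genes under the settings other than left-out libraries 488 kept their direction and their side of the adjusted p threshold, whatever the fold, and of 258 with a library left out 230 did. Depth limits the 5 untested complex IV forms, the cause of the other shifts was not tested, and counts on copies of a gene cannot be told apart.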
